A study of Mus musculus with 4 samples.

Results

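Arterial identity genes are described here through 9 genes of the deposited table that mark arterial endothelium and do not encode matrix proteins: the connexins Gja4 and Gja5, the transcription factors Hey1, Hey2 and Sox17, the guidance and cell contact genes Efnb2, Sema3g and Unc5b, and the kinase gene Bmx. They and the gene lists below were chosen by gene symbol with earlier results of these data known. Their counts beside the shares of all genes are therefore a description. All 9 were found among the 17915 genes of the table, and all 9 passed the filter on low counts that left 13177 genes for testing. The cells were lung endothelial cells of mice of genotype Cdh5-CreER;aSMA-LSL-Dre;NR1, in which endothelial cells carry ZsGreen and turn to tdTomato once the alpha smooth muscle actin (aSMA) gene has been active, even for a short time. Both groups came from mice given tamoxifen 5 times and studied 6 weeks after transverse aortic constriction (TAC), a narrowing of the aorta, so the ZsGreen+ cells carry the same alleles and had the same treatments, and neither group is from an unoperated mouse. Cdh5-CreER acts in endothelium and is switched on by tamoxifen, and the tdTomato label stays after aSMA is silent, so a tdTomato+ cell need not express aSMA when it is collected. RNA was amplified over the whole transcriptome and sequenced in bulk, giving 2 tdTomato+ and 2 ZsGreen+ libraries that are labelled as biological replicates. The labels name no mouse for any library, so replicates may share a mouse, both colours may come from one mouse, and p-values describe only how these libraries vary.

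Arterial endothelial cells are set apart from venous and capillary cells by Notch signalling, in which ligands on one cell activate receptors on the next and the receptor's inner part joins the DNA-binding protein RBPJ to switch on genes such as those of the Hey family. Sox17 acts with Notch in arterial specification. Gap junction proteins, ephrins and semaphorins carry out parts of the arterial programme, from electrical and metabolic coupling between cells to the boundary between arteries and veins. In the lung, artery endothelium leads into a dense alveolar network of general capillary (gCap) cells and aerocytes (aCap), which supply most of the endothelial cells.

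The libraries held between 17050673 and 18574737 estimated counts over 14969 to 15747 genes with a count. CPM is the count relative to the TMM-scaled size of its library, and TPM values, which also correct for transcript length, are those deposited. Acta2, the gene that the recorder reads, stood at 304 and 528 CPM in tdTomato+ replicates 1 and 2 and at 87.6 and 82.9 CPM in ZsGreen+ replicates 1 and 2 (log2 fold change 2.29, SE 0.29, edgeR adjusted p = 0.0432). That call ended without tdTomato+ replicate 2 (log2 fold change 1.86, edgeR adjusted p = 0.126) and without ZsGreen+ replicate 2 (2.24, edgeR adjusted p = 0.111). Endothelial markers were abundant in every library, with Pecam1 between 1809 and 2104 CPM and Cdh5 between 1112 and 2422 CPM, but the list of 10 lay somewhat lower in tdTomato+ cells. It summed to 9709.8 and 9565 CPM in tdTomato+ against 12561 and 10799 CPM in ZsGreen+ cells, with 5 genes apart and lower, 1 apart and higher (Emcn), none called and a median log2 fold change of -0.16. Of all genes tested, 18.2% had both tdTomato+ libraries below both ZsGreen+ libraries in CPM, 19.9% had both above, and 0.304% were called. The lowest log2 fold change of the list was that of Cldn5, a tight junction gene, at 407 and 533 against 769 and 915 CPM (-0.84, SE 0.22, edgeR adjusted p = 0.272). The part of this difference in the values of the 9 genes was not tested.

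Gja5, Hey2 and Bmx lay 3.19 to 4.03 times higher in tdTomato+ than in ZsGreen+ cells, while Gja4, Efnb2 and Sema3g overlapped between the groups and Hey1, Sox17 and Unc5b lay 1.3 to 1.51 times lower. None of the 9 passed edgeR's quasi-likelihood test over all genes at an adjusted p under 0.05, a threshold that 0.304% of all genes tested passed. At an unadjusted p under 0.05 there were 3 members higher and 1 lower, against 5.62% and 3.15% of all genes. DESeq2 called 3 members, Gja5, Hey2 and Bmx, where it called 2.5% of all genes, and limma-voom called none, with 0.25% of all genes called. Both tdTomato+ libraries were above both ZsGreen+ libraries in CPM for 3 members and below them for 3, against 19.9% and 18.2% of all genes. The median log2 fold change of the 9 genes was 0.07, beside -0.01 over all genes tested. Because the libraries are bulk, a larger share of arterial cells and more RNA of these genes per cell cannot be told apart.

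**Figure D1:**
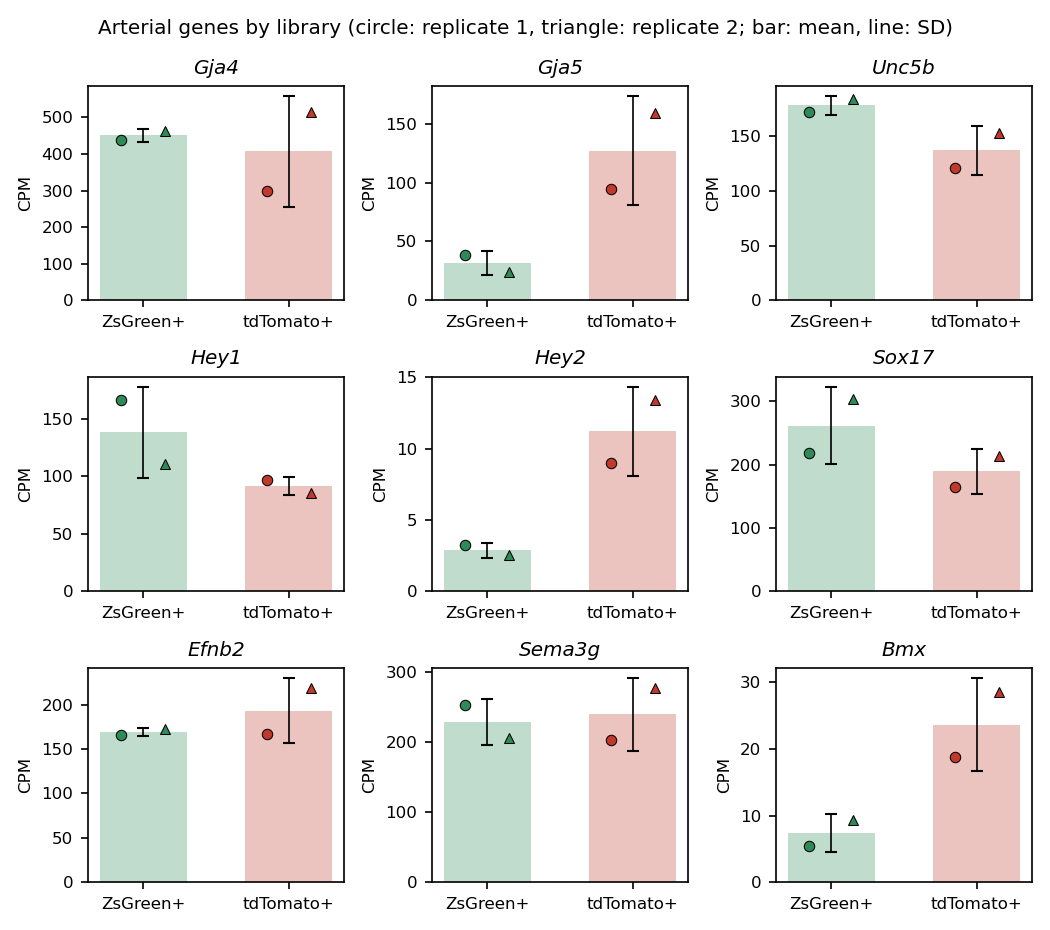
CPM (counts relative to TMM-scaled library size) of the 9 arterial genes in each library. Bars are group means, lines the SD (n = 2), circles replicate 1 and triangles replicate 2; both tdTomato+ points lie above both ZsGreen+ points for Gja5, Hey2 and Bmx, and below them for Hey1, Sox17 and Unc5b.

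The connexins form gap junctions, channels that join the cytoplasm of neighbouring cells. Gja5 encodes connexin 40, found in the endothelium of arteries and larger arterioles. It reached 94.2 and 159 CPM in tdTomato+ replicates 1 and 2, compared with 38.6 and 24.4 CPM in ZsGreen+ replicates 1 and 2. Every tdTomato+ library was above every ZsGreen+ library, with a gap that exceeded the spread within ZsGreen+ cells but not the spread within tdTomato+ cells. The log2 fold change was 2.01 (SE 0.33, 95% interval 1.23 to 2.79), with an unadjusted p of 0.000507 and an edgeR adjusted p of 0.0967. It ranked 69th of 13177 genes by p. Among the alternatives that do not use the replicate numbers, Gja5 passed with DESeq2 (log2 fold change 2.00, DESeq2 adjusted p = 1.02e-06), with edgeR when no filter on low counts was used (2.01, edgeR adjusted p = 0.0113, where 0.764% of all genes passed), and when ZsGreen+ replicate 1 was left out (2.38, edgeR adjusted p = 0.0192, where 2.21% of all genes passed). Over all 14 alternatives its log2 fold change lay between 1.61 and 2.38 and its adjusted p between 1.2e-16 and 0.344.

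Gja4 encodes connexin 37, which is also found in arterial and in smaller vessels. It measured 299.9 and 514 CPM in the tdTomato+ libraries and 439 and 463 CPM in the ZsGreen+ libraries. The ZsGreen+ values lay inside the range of the tdTomato+ values. The log2 fold change was -0.15 (SE 0.28, 95% interval -0.80 to 0.50, edgeR adjusted p = 0.946), and it turned to 0.18 when tdTomato+ replicate 1 was left out. Set against Gja4 in the same library on the TPM scale, Gja5 amounted to 16% and 15.8% of Gja4 in tdTomato+ cells and to 4.5% and 2.68% in ZsGreen+ cells. The ratio was nearly equal in both tdTomato+ libraries, while on the same scale Gja4 stood at 326 and 529 TPM and Gja5 at 52.2 and 83.9 TPM in them. The means were 15.9% ± 0.127 and 3.59% ± 1.28 (SD, n = 2 each), 4.44 times apart. With 2 libraries against 2, an exact two-sided permutation test cannot give a p below 0.333, and the ratio is given as a description.

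**Figure D2:**
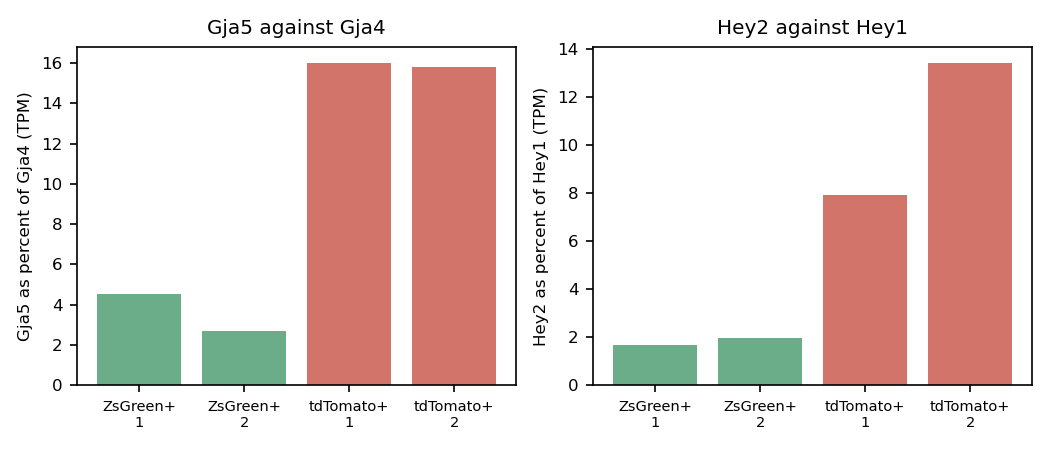
Gja5 as a percent of Gja4 and Hey2 as a percent of Hey1, each from deposited TPM values, for each of the 4 libraries. Bars are single libraries; the tdTomato+ bars reach 15.8% to 16% for the connexins and 7.89% to 13.4% for the Hey genes, and the ZsGreen+ bars stay at or under 4.5% and 1.95%.

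Hey1 and Hey2 are basic helix-loop-helix repressors induced by Notch, and arterial development in the mouse embryo is impaired when both are lost together. Hey2 measured 9.02 and 13.4 CPM in the tdTomato+ libraries and 3.23 and 2.52 CPM in the ZsGreen+ libraries. All tdTomato+ values were above all ZsGreen+ values, at the lowest levels of any of the 9 genes. The log2 fold change was 1.96 (SE 0.38, 95% interval 1.05 to 2.87, unadjusted p = 0.00145, edgeR adjusted p = 0.144), and among the alternatives that do not use the replicate numbers DESeq2 alone called it (log2 fold change 1.96, DESeq2 adjusted p = 0.00222; range over the 14 alternatives 1.71e-05 to 0.816). The counts behind Hey2 were 164 and 255 in tdTomato+ cells and 51 and 46 in ZsGreen+ cells.

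Hey1 went the other way. It measured 97.1 and 85.8 CPM in the tdTomato+ libraries and 166 and 110.5 CPM in the ZsGreen+ libraries. Both tdTomato+ values were below both ZsGreen+ values, and the ZsGreen+ libraries differed from each other by more than their lower value differed from the tdTomato+ libraries. The log2 fold change was -0.60 (SE 0.23, 95% interval -1.14 to -0.05, unadjusted p = 0.0365, edgeR adjusted p = 0.517). Hey2 amounted to 7.89% and 13.4% of Hey1 on the TPM scale in tdTomato+ cells and to 1.66% and 1.95% in ZsGreen+ cells, 5.88 times apart by the means. Hey1 nevertheless remained the more abundant of the pair in every library.

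Sox17 encodes a SOX F transcription factor of arterial endothelium. It measured 164 and 213 CPM in the tdTomato+ libraries and 218 and 304 CPM in the ZsGreen+ libraries, and the upper tdTomato+ value came close to the lower ZsGreen+ value. The log2 fold change was -0.47 (SE 0.24, 95% interval -1.03 to 0.10, edgeR adjusted p = 0.683). On the TPM scale the groups overlapped, with 77.8 and 96.9 against 85.7 and 139 TPM.

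Among the guidance and contact genes, Efnb2 encodes ephrin B2, the transmembrane ligand that marks arteries and binds EphB4 on veins. It measured 167 and 219 CPM in the tdTomato+ libraries and 166 and 172 CPM in the ZsGreen+ libraries, with a log2 fold change of 0.19 (SE 0.20, 95% interval -0.28 to 0.66, edgeR adjusted p = 0.884). One tdTomato+ library was level with the ZsGreen+ libraries and the other was above them. Sema3g, a secreted semaphorin of arterial endothelium, measured 203 and 276 CPM in the first group and 252 and 205 CPM in the second, for a log2 fold change of 0.07 (SE 0.22, 95% interval -0.46 to 0.60, edgeR adjusted p = 0.975). Its values interleaved, and the sign of its log2 fold change turned without tdTomato+ replicate 2 (-0.15) and without ZsGreen+ replicate 2 (-0.08). Unc5b, a netrin receptor of arteries and sprouting tip cells, measured 121 and 153 CPM in the tdTomato+ libraries and 172 and 184 CPM in the ZsGreen+ libraries. Both tdTomato+ values were lower, with a log2 fold change of -0.38 (SE 0.19, 95% interval -0.82 to 0.07, edgeR adjusted p = 0.669), while on the TPM scale the groups overlapped, at 34.9 and 41.8 against 40 and 50.4 TPM.

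Bmx encodes a TEC family tyrosine kinase found in the endothelium of large arteries and in the endocardium, and in myeloid cells. It measured 18.7 and 28.5 CPM in the tdTomato+ libraries and 5.38 and 9.37 CPM in the ZsGreen+ libraries. The groups did not overlap, and the gap between them was about as large as the spread within the tdTomato+ group. The log2 fold change was 1.67 (SE 0.37, 95% interval 0.80 to 2.54, unadjusted p = 0.00269, edgeR adjusted p = 0.183). DESeq2, again alone among those alternatives, called it (log2 fold change 1.67, DESeq2 adjusted p = 0.00424; range over the 14 alternatives 4.81e-07 to 0.828). The other TEC kinases were near the detection limit, with Tec at 1.15 to 2.37 CPM. Btk, known from B cells and myeloid cells, stood at 4.62 and 2.89 CPM in tdTomato+ against 2.21 and 1.04 CPM in ZsGreen+ cells. It was apart and higher, as Bmx was (log2 fold change 1.21, SE 0.58, edgeR adjusted p = 0.644). Neither Tec nor Btk passed.

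**Figure D3:**
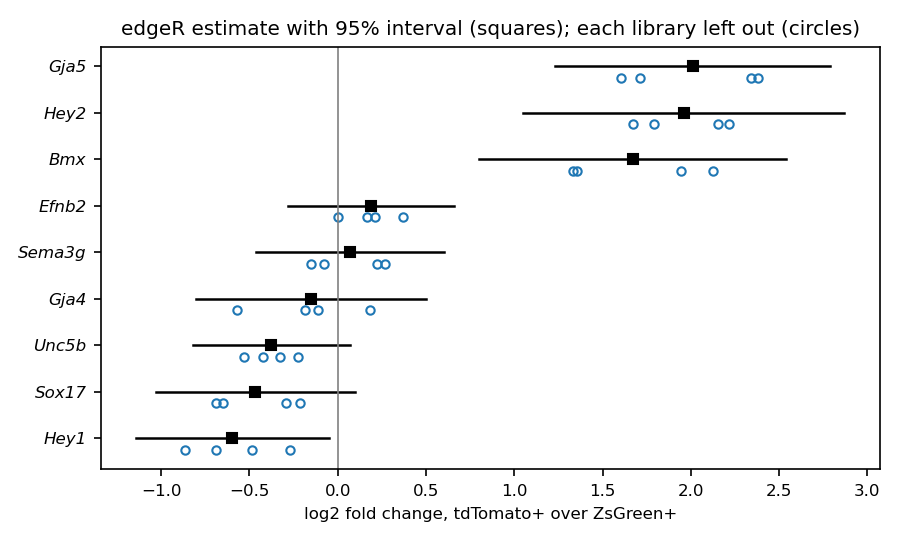
Log2 fold change of tdTomato+ over ZsGreen+ cells for the 9 genes. Squares and lines are edgeR estimates and 95% intervals, and circles are estimates with 1 library left out in turn; Gja5, Hey2 and Bmx lie between 1.33 and 2.38 in every circle, while Gja4 and Sema3g have circles on both sides of 0.

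Per transcript length, Gja4 was the most abundant of the 9 genes in both groups, at 427 ± 144 TPM in tdTomato+ and 431 ± 67.7 TPM in ZsGreen+ cells (SD, n = 2 each), and it made up 49.1% and 51.6% of their summed TPM. In ZsGreen+ cells the order went on with Sox17 (112 ± 37.7 TPM), Hey1 (97.2 ± 16.6 TPM), Sema3g (77.1 ± 2.11 TPM), Efnb2 (52.2 ± 7.42 TPM) and Unc5b (45.2 ± 7.35 TPM). Gja5 (15.1 ± 3.1 TPM), Bmx (3.83 ± 1.87 TPM) and Hey2 (1.74 ± 0.099 TPM) closed the order. Among neighbours in that order, Sox17 and Hey1 overlapped, as did Efnb2 and Unc5b, and the libraries of the other neighbours did not. In tdTomato+ cells the genes after Gja4 were Sema3g (90.6 ± 16.7 TPM), Sox17 (87.3 ± 13.5 TPM), Hey1 (72.7 ± 9.45 TPM), Gja5 (68 ± 22.4 TPM) and Efnb2 (64.8 ± 10.2 TPM), and each overlapped the next. Unc5b (38.3 ± 4.84 TPM), Bmx (13.2 ± 3.44 TPM) and Hey2 (7.54 ± 1.82 TPM) followed, each apart from its neighbours. Gja5 was thus in the fifth place in tdTomato+ cells and in the seventh in ZsGreen+ cells, with Bmx and Hey2 last in both. The summed TPM of the 9 genes was 723 and 1017 in tdTomato+ and 765 and 907 in ZsGreen+ cells.

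The TPM scale is set differently from CPM. Over 10886 genes at 1 TPM or more in every library, the median log2 ratio of mean TPM was 0.10 in favour of tdTomato+ cells, and 28.8% of genes tested had both tdTomato+ libraries above both ZsGreen+ libraries, against 8.17% below. On that scale 5 of the 9 genes were apart and higher, Gja5, Hey2, Bmx, Efnb2 and Sema3g, and 1 was apart and lower, Hey1. Efnb2 was barely apart, at 57.7 and 72 TPM in tdTomato+ against 47 and 57.5 TPM in ZsGreen+ cells. The same held for Sema3g, at 78.8 and 102 against 78.6 and 75.6 TPM. Gja5, Hey2, Bmx and Hey1 had separate groups on both scales.

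**Figure D4:**
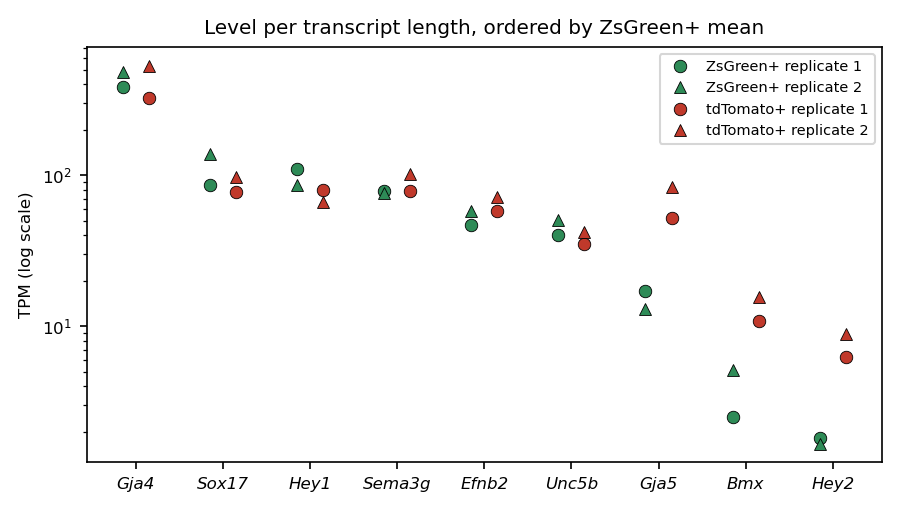
Deposited TPM of the 9 genes on a log axis, ordered by the ZsGreen+ mean. Each point is 1 library; Gja4 leads in all 4 libraries, and the 3 genes lowest in ZsGreen+ cells, Gja5, Bmx and Hey2, are those whose tdTomato+ points lie clearly above.

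Within the tdTomato+ group, 8 of the 9 genes were higher in replicate 2 than in replicate 1, by 1.26 to 1.71 times, Hey1 being the exception at 0.883. Acta2 itself differed 1.74 times between the same libraries. Over 10360 genes that averaged 5 CPM or more, 50.9% were higher in tdTomato+ replicate 2, with a median log2 ratio of 0.01, beside a median of 0.44 for the 9 genes. In ZsGreen+ cells 5 of the 9 genes were higher in replicate 2, with a median log2 ratio of 0.05.

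The sequences before the transcription starts of the 3 genes with the highest log2 fold changes are shown with that of Gja4, the connexin whose groups overlapped, because Hey genes are textbook targets of RBPJ. RefSeq's table (build GRCm38.p6) gave a window for 7 of the 9 genes, not for Hey1 and Sox17. Each sequence runs 5′ to 3′ on the gene's strand from 250 bases before the start to the first 10 bases of the transcript, and capitals mark TGGGAA, the core of the RBPJ site, or its reverse complement TTCCCA.
Gja5 promoter, chr3:97032152-97032411, plus strand: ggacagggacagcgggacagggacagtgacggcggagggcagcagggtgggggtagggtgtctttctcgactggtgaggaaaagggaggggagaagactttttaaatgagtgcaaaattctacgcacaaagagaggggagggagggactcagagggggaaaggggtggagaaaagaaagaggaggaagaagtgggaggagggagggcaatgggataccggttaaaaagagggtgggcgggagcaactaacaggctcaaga
Gja4 promoter, chr4:127314030-127314289, minus strand: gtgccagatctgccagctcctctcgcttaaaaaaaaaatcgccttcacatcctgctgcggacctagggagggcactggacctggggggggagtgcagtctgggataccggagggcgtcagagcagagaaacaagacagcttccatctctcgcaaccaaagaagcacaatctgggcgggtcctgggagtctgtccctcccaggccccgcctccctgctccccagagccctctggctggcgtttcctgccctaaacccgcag
Hey2 promoter, chr10:30842774-30843033, minus strand: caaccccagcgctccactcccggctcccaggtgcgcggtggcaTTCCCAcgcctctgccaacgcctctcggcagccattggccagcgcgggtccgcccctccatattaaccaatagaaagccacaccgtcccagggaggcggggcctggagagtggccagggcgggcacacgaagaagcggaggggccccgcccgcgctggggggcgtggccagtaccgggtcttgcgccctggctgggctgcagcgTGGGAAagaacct
Bmx promoter, chrX:164258184-164258443, minus strand: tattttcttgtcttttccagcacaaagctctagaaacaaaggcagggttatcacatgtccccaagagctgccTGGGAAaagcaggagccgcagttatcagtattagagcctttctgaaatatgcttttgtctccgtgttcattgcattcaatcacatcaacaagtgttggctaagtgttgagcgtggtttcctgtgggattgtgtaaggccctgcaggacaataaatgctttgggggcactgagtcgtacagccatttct
Searched on both strands, TGGGAA was found in 22.4% of 32851 promoter windows of this length and in 2 of the 7 members with a window. Hey2 held it at position -207, as TTCCCA, and at position -3, counted from the transcription start. Bmx held it at -178, and Gja5 and Gja4 did not hold these letters in the window. The core of the SOX site, ACAAT or its reverse complement ATTGT, was in 28.5% of all windows and in 3 of the 7, Gja4, Bmx and Unc5b. The motifs share no letters in these windows. Base composition differed among them, from 45.4% G and C in Bmx to 56.2% in Gja5, 61.2% in Gja4 and 70.4% in Hey2, beside a median of 52.3% over all windows.

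In GRCm38, Gja4 (NCBI Gene 14612) spans 127311420 to 127314039 on chromosome 4 and Gja5 (14613) spans 97032402 to 97053634 on chromosome 3. Hey1 (15213) spans 8663359 to 8667038 on chromosome 3, Hey2 (15214) 30832359 to 30842783 on chromosome 10 and Unc5b (107449) 60762594 to 60831581 on chromosome 10. Bmx (12169) spans 164192842 to 164258193 on chromosome X and Sema3g (218877) 31217873 to 31230352 on chromosome 14. The deposited spans of Efnb2 (13642), 8612252 to 8661242 on chromosome 8, and Sox17 (20671), 4490928 to 4499502 on chromosome 1, differ from RefSeq's. GENCODE M21 places an antisense gene, 4930573H18Rik, over 6979 bases of the Gja5 span, a transcript on the opposite strand over 2952 bases of the Sox17 span, and a non-coding gene on the opposite strand over 3599 bases of the Efnb2 span. None of these is among the rows analysed here, and no source used here gives the strandedness of the counting, so their reads cannot be told apart from those of the named genes. Further transcripts on the same strand lie within the Efnb2 and Unc5b spans. Strands here are GENCODE's, because the deposited table gives the plus strand for Efnb2, Sox17 and Unc5b, which GENCODE places on the minus strand. All 36 member counts were whole numbers, from 46 to 9787.

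Genes whose profiles over the 4 libraries were closest to each member were found by the Euclidean distance between centred log2 CPM values, among 9958 other genes that averaged 5 CPM or more. For Gja5 these included the protease gene Ctsh (distance 0.251) and Htra1 (0.282), a secreted protease also listed among the artery genes. Htra1 stood at 108 and 142 CPM in tdTomato+ and 42.8 and 25.6 CPM in ZsGreen+ cells. For Hey2 they were Tmem255b (0.185), Slc45a4 (0.214) and the kinase Nuak1 (0.225), of which Tmem255b was called (log2 fold change 2.10, edgeR adjusted p = 0.0465). For Bmx they included the ephrin Efna5 (0.0877) and the complement regulator Cd55 (0.287). Between members, Gja5 and Hey2 were 0.278 apart, and the nearest pair was Efnb2 and Sema3g at 0.273. With only 4 libraries in a profile, these distances are a description.

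Other genes of arterial endothelium were more often higher than lower. Of 18 further artery genes 17 were tested, 13 had a log2 fold change above 0 (49.3% of all genes did), 9 were apart and higher and 1 was apart and lower, with a median of 0.50. Over all genes tested, 19.9% were apart and higher, 18.2% apart and lower, and 0.304% called. Only Cdh13, T-cadherin, was called, at 344 and 376 CPM in tdTomato+ against 130 and 104 CPM in ZsGreen+ cells (log2 fold change 1.62, SE 0.20, edgeR adjusted p = 0.0432). Dkk2, a Wnt antagonist of arteries, stood at 15 and 13.8 CPM against 1.58 and 0.11 CPM without passing (edgeR adjusted p = 0.164), and neither Htra1 (0.0809) nor the transporter Atp13a3 (0.176) passed. Named after their values were seen, Cxcl12 (-0.18), Edn1 (-0.43), Depp1 (-0.59) and Epas1 (-0.35) went the other way, and Epas1 was apart and lower. Summed over the 18 genes, CPM overlapped, at 6222 and 7265 in tdTomato+ against 6414 and 7404 in ZsGreen+ cells. Of 7 matrix genes of arteries all were apart and higher, with a median of 1.44, and 2 were called, matrix Gla protein, Mgp (2.22), and fibulin 2, Fbln2 (1.81). The values of Fbln5 (1.66) and Ltbp4 (1.31) did not pass.

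No gene of the Notch pathway list was called, where 0.304% of all genes tested were. Of 16 tested, 9 had a log2 fold change above 0 and the median was 0.11, with 4 apart and higher and 3 apart and lower, beside 19.9% and 18.2% of all genes. Dll4, the main arterial Notch ligand and named after its values were seen, overlapped at 193 and 205 CPM against 268 and 181 CPM, and so did the receptor Notch1 at 248 and 242 against 245 and 221 CPM. The ligand Jag2 lay lower (log2 fold change -0.66, SE 0.17, edgeR adjusted p = 0.272) and Heyl, the third Hey family gene, lay higher at 3.52 and 3.31 against 1.08 and 1.26 CPM (1.54, SE 0.51, edgeR adjusted p = 0.412). Maml2, a coactivator (0.50), and Dtx3 (0.41) did not pass either.

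Of 10 other channel genes of the gap junction kind 5 were tested and none was called. Over all genes tested 0.304% were called, so a list as short as this, drawn from them at random, would seldom hold a call. Gja1, connexin 43, overlapped at 50.6 and 37.5 against 47.5 and 52.1 CPM (log2 fold change -0.18, SE 0.21, edgeR adjusted p = 0.903). Of the guidance partners 17 were tested and none was called, with a median of -0.06. Ephb4, the venous receptor of ephrin B2 and named after its values were seen, overlapped at 277 and 350 against 324 and 329 CPM, so neither side of this ligand and receptor pair separated the groups in CPM. Plxna1, a semaphorin receptor subunit (-0.77), the ephrin Efnb1 (-0.61) and Flrt3 (-2.08), a ligand of Unc5 receptors, lay lower, and Flrt2, another such ligand, lay higher (0.94), each without passing. Sox7 and Sox18, the other SOX F genes, named after their values were seen, overlapped between the groups at 298 to 387 and 506 to 700 CPM. Of 12 factors tested in that list none was called, with a median of 0.03, and the largest value was that of Foxc2 (1.44, SE 0.58, edgeR adjusted p = 0.544).

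Most venous genes also stood higher in tdTomato+ cells, 11 of 14 with a log2 fold change above 0. Of 14 tested 3 were called higher, Vcam1 (2.00), Cpe (1.77) and Car8 (1.65), with 8 apart and higher, 1 apart and lower and a median of 1.10. The next 4 are named after their values were seen. Nr2f2 overlapped at 40.5 and 55.5 against 31.7 and 52.1 CPM (0.20). Below 0 were Ephb4 (-0.06) and Aplnr (-0.26), which overlapped, and Flt4 (-1.04), the gene apart and lower. Over all genes tested 0.304% were called, 19.9% were apart and higher and 18.2% apart and lower. Of 10 aCap genes 8 were apart and lower, with a median of -0.91 and 1 call, Prx (-1.74), and of 10 gCap genes 5 were apart and lower and 1 higher, with a median of -0.41 and no call. Lymphatic markers had a median of -2.03 over 7 tested, with 3 called lower and 6 apart and lower. The part of these cell types in the differences of Gja5, Hey2 and Bmx was not tested.

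Several lists of non-endothelial markers also stood higher in tdTomato+ cells. Apart and higher were 19.9% of all genes, and apart and lower 18.2%. Fibroblast markers had all 10 log2 fold changes above 0 and 6 apart and higher, and they summed to 243 and 447 CPM in tdTomato+ against 101 and 125 CPM in ZsGreen+ cells. Vascular smooth muscle, where Hey2 is also known, had its markers other than Acta2 and Tagln at or under 19.1 CPM in every library. Myh11, the defining myosin, stood at 4.07 and 7.67 against 2.85 and 4.71 CPM and overlapped. Of 7 smooth muscle markers tested 6 had a log2 fold change above 0, with a median of 0.69. Of these, 4 were apart and higher: Tagln, Actg2, Lmod1 and Acta2, the gene that the recorder reads. The 8 summed to 1663 and 2360.4 against 1414 and 1005 CPM, of which Tagln supplied most. Without Tagln the other 7 summed to 328 and 573 against 114 and 111 CPM. Acta2 alone supplied 304 and 528 against 87.6 and 82.9 CPM of that. Pericyte markers summed to 7.4 to 12.5 CPM in every library. Leukocyte markers summed to 4218 and 2130.5 against 2441 and 518 CPM, of which Lyz2 supplied most; without it they summed to 265 and 162 against 172 and 49.4 CPM. All 8 had a log2 fold change above 0 and 2 were apart and higher, Ptprc at 20.7 and 13.8 against 8.61 and 3.51 CPM and S100a8 at 14.6 and 21.4 against 12.7 and 6.08 CPM. Epithelial markers had 6 of 10 apart and higher and 1 apart and lower, and summed to 439 and 527 against 274 and 530.1 CPM. The club cell gene Scgb1a1 supplied 384 CPM of the last sum and 17.7 to 54.4 CPM of the others, and without it the sums were 391 and 473 against 257 and 146 CPM. Cardiac muscle, where Gja5 is also known and which reaches into lung veins of the mouse, had its 8 markers at a sum of 4.75 to 6.46 CPM in every library. Myh6, Myl7 and Nppa were at or under 0.657 CPM and Ryr2 was at 0. The 3 that were tested had log2 fold changes above 0 and did not pass: Actc1 stood apart at 2.09 and 3.94 against 1.46 and 1.59 CPM (log2 fold change 0.98, edgeR adjusted p = 0.74), while Tnnt2, at 1.39 to 2.48 CPM, and Tnni3 overlapped. Apart from these measurements, the part of other cells in the values of the 9 genes was not tested.

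**Figure D5:**
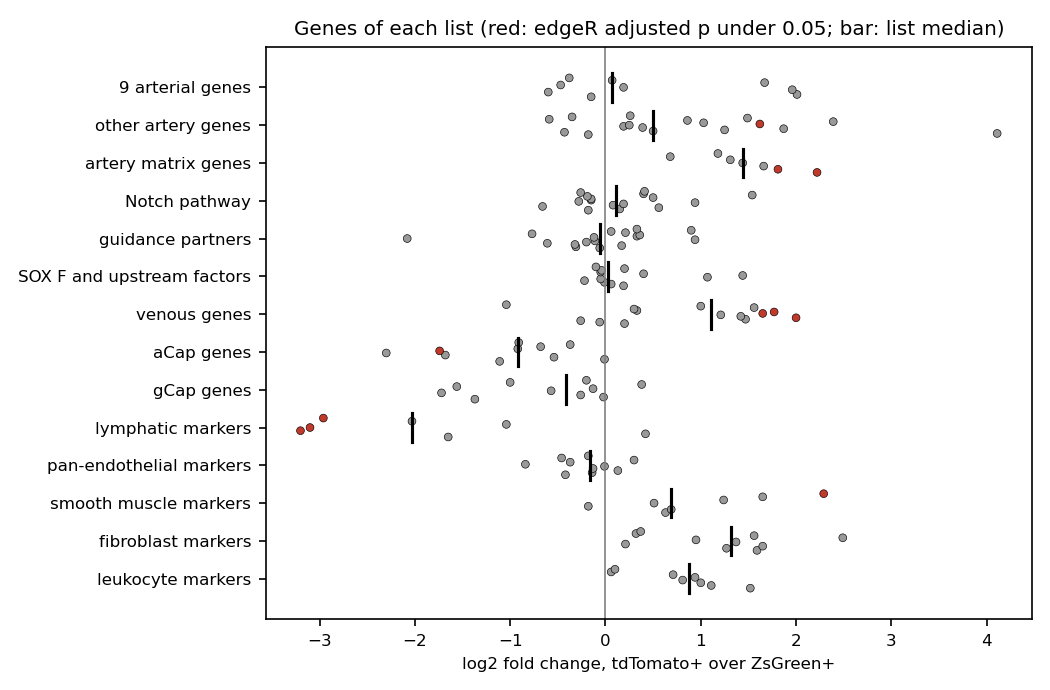
Log2 fold change of tdTomato+ over ZsGreen+ cells for each tested gene of 14 lists, with list medians as black bars and genes at an edgeR adjusted p under 0.05 in red. The 9 arterial genes have their median at 0.07 with Gja5, Hey2 and Bmx far to the right and none red. The medians of matrix, fibroblast, venous, leukocyte, smooth muscle and other artery genes lie at 0.50 or more. Those of lymphatic, aCap and gCap genes lie at -0.41 or less, and those of the remaining lists between -0.16 and 0.11.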

How the data were processed

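RNA of lung endothelial cells was purified (RNeasy Micro), amplified with the Discover-sc WTA kit and sequenced from TruePrep libraries, per the labels' protocols. No molecular identifiers are named, so 1 count need not be 1 molecule. The table uses mm10 (GRCm38), with RSEM 1.3.1 and DESeq2 1.4.5 named in the submitters' processing notes; no source used here gives the aligner. The authors deposited estimated counts per gene, of which 16.2% to 17.9% are not whole; they were rounded for tests. The deposited TPM values sum to between 999999 and 1000001 per library and served for levels between genes. The other 8 per-sample columns were not used.

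edgeR 4.0.16 (R 4.3.3) compared tdTomato+ with ZsGreen+ libraries by its two-sided quasi-likelihood F-test, with TMM factors and filterByExpr (minimum count 10), and Benjamini-Hochberg adjustment over 13177 genes. The SE was derived from the log2 fold change and its F value, and 95% intervals use edgeR's degrees of freedom. The edgeR, DESeq2 and limma-voom fits were also run on counts simulated from the levels and spread fitted to these data. As alternatives, DESeq2 1.42.0, limma-voom (limma 3.58.1), RLE or upper quartile factors, other filters, each library left out, a replicate block, and limma on log2 TPM were run.

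The 9 genes and the gene lists were chosen with earlier results of these data known, and the cardiac list, the SOX motif and marker sums without the most abundant gene were added after values were seen. Named are the 9 genes, Acta2, from each list the 4 genes of smallest p that averaged 1 CPM or more, and the 3 nearest profiles per member, of which some genes are not reported here; for others the text says that they were chosen after their values were seen. Pecam1, Cdh5, Myh11, Ptprc, Gja1, Tec and the cardiac genes are named as defining markers or relatives whatever their p. Lyz2 and Scgb1a1 were named after their values were seen.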

Additional observations from a re-analysis of the deposited data

How the results depend on the processing

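edgeR called 40 of 13177 genes and none of the 9 arterial genes. DESeq2 called 330 genes and 3 of the arterial genes (Gja5, Hey2 and Bmx), edgeR without a filter on low counts 128 and 1 (Gja5), and limma on log2 of TPM plus 0.1 called 22 genes and none of the 9. Limma on log2 of TPM plus 1 without a filter called 0 genes, with 1508 at an unadjusted p under 0.05, and 31 with the filter. Leaving out each library in turn gave 4 to 304 genes and 0 to 1 of the arterial genes, the 4 without tdTomato+ replicate 2, the 304 and the 1, Gja5, without ZsGreen+ replicate 1. Under the replicate block 934 genes and 3 arterial genes (Gja5, Hey2 and Bmx) passed. The labels do not say that the numbers mark shared mice or batches, although the deviations of same-numbered libraries correlated across genes at r = 0.45, with only 2 pairs. Without 1 library in turn, the log2 fold change of Gja4 ranged from -0.57 (without tdTomato+ replicate 2) to 0.18 (without tdTomato+ replicate 1), and that of Sema3g from -0.15 (without tdTomato+ replicate 2) to 0.27 (without tdTomato+ replicate 1), with -0.08 without ZsGreen+ replicate 2; the log2 fold changes of the other 7 arterial genes kept their sign in all 14 alternatives. The causes of these changes were not tested. With 2 libraries per group, values within about 1.5 times of each other had intervals that reached or came near 0.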
